A study of Mus musculus with 13 samples.

Results

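Genes that cells use to copy their DNA and to divide were followed in the hippocampus of heterozygous Kmt2d+/βGeo mice, a model of Kabuki syndrome, and of their wild-type controls. The list holds 36 genes, chosen by name for their roles in mitosis and DNA replication. Each gene was represented by the brightest probe set (by mean over the 13 arrays) among those that the platform annotation gives to that gene alone. This gave values for 35 of the 36 genes, out of 19938 genes in all. Ccnb1, which encodes cyclin B1, had no probe set in the annotation used and has no value here. The rule for probe sets used no difference between groups, but the list was made with earlier results of these data known.

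Whole hippocampi were profiled on 13 arrays in 2 experiments, 1 mouse per array. Experiment 2 had 3 Kmt2d+/βGeo and 3 wild-type mice, which received 3 saline injections a day. Experiment 1 had 3 Kmt2d+/βGeo and 4 wild-type mice, which received none. All mice were C57BL/6J, 1 to 2 months old and fed standard chow. Their labels give female as the sex, apart from 1 mouse of unknown sex, replicate 3 of the wild type in experiment 1. The βGeo allele is a gene trap, carried in the germline and therefore in every cell type, and the other Kmt2d allele is intact. Values are log2 intensities as the authors deposited them, so a difference of 1 is a doubling. A ± after a difference is its standard error (SE). A gene was counted as having risen or fallen when limma, a linear model fitted across all genes, gave a Benjamini-Hochberg adjusted p below 0.05 over the 19938 genes.

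Kmt2d encodes a methyltransferase that places methyl groups on lysine 4 of histone H3, mainly at enhancers. The members serve the cell cycle in order. The Mcm2 to Mcm7 proteins form the ring-shaped helicase that is loaded on replication origins and opens the DNA, Pcna is the sliding clamp that holds DNA polymerases, and Rrm2 and Tyms supply nucleotides. Cdk1 with its cyclins then drives entry into mitosis, kinesins and kinetochore proteins move the chromosomes, and Cdc20 and Ube2c start the destruction of proteins that ends it. In the hippocampus of young adult mice most cells are neurons that no longer divide. The dentate gyrus keeps neural progenitors that do, and glial precursors, microglia and endothelial cells can also divide. The array measures RNA of the whole tissue, so fewer dividing cells and less RNA of these genes per cell cannot be told apart.

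Promoter sequences of 8 members are given because these genes carry the values described below and to show which of 3 kinds of sequence word each holds. Each is the 150 bases before the transcription start, 5′ to 3′ on the gene's strand, from RefSeq on build GRCm38.p6. Capitals mark matches on either strand to these words. They are the cell cycle genes homology region, or CHR (TTTGAA or TTCGAA), known from promoters of mitosis genes, the CCAAT box (CCAAT), and E2F words (TTTGGCGC, TTTCCCGC, TTTGCCGC or TTTCGCGC), known from promoters of replication genes. The first E2F words in the Mcm6 stretch overlap each other.
Mcm6 (chr1:128359706-128359855, minus strand): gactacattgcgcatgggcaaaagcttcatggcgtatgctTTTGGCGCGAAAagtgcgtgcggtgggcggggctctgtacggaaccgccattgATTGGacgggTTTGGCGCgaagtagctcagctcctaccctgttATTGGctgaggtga
Mcm5 (chr8:75109359-75109508, plus strand): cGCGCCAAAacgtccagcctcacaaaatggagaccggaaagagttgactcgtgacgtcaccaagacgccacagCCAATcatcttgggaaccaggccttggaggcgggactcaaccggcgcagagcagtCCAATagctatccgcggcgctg
Pcna (chr2:132253181-132253330, minus strand): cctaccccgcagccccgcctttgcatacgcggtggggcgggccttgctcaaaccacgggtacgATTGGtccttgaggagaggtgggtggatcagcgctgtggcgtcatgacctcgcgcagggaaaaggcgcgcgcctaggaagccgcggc
Cdk1 (chr10:69352913-69353062, minus strand): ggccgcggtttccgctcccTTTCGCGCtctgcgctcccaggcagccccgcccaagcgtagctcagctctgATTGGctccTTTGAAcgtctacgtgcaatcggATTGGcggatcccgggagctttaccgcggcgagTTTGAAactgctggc
Mki67 (chr7:135716380-135716529, minus strand): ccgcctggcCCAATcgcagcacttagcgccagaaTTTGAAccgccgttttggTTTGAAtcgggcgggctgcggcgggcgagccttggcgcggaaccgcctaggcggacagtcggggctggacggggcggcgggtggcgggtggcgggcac
Top2a (chr11:99024190-99024339, minus strand): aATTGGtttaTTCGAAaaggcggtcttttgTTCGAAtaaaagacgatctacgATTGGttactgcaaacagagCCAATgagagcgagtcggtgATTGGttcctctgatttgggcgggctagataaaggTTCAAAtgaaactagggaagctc
Kif11 (chr19:37376232-37376381, plus strand): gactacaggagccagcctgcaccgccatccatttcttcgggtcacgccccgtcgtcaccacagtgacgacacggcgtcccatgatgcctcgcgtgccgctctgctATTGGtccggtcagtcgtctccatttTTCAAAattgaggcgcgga
Ndc80 (chr17:71526858-71527007, minus strand): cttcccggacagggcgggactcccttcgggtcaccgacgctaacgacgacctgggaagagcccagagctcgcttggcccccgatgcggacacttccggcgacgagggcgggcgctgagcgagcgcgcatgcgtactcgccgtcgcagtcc

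The Mcm6 and Mcm5 stretches hold E2F words and CCAAT boxes and no CHR, and that of Pcna has a CCAAT box alone. Those of Mki67, Top2a and Kif11 hold CHR and CCAAT boxes and no E2F word, the Cdk1 stretch holds all 3, and that of Ndc80 holds none. The RefSeq table had a promoter for 30 of the 36 listed genes, 2 each for Mcm7 and Prc1, which makes 32 promoters. Over the 250 bases before the start, 26 of these 32 (81.2%) held a CCAAT box, against 33.8% of all 32851 promoters of the same length. A CHR stood in 11 of them (34.4%, against 17.1% of all promoters), and all 11 also held a CCAAT box (34.4%, against 6.02%). E2F words were found in 5 (15.6%, against 1.86%), namely in the promoters of Cdc6, Mcm5, Mcm6, Mcm7 and Cdk1. By role, E2F words were in 4 of 10 replication promoters (40.0%) and 1 of 22 mitosis promoters (4.55%), and CHRs in 2 of 10 (20%) and 9 of 22 (40.9%). A match is a description of the letters and not evidence of a bound site.

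The targeted gene was checked first. Kmt2d probe set 10432294 had 7.88, 8.0 and 8.18 log2 units in Kmt2d+/βGeo mice of experiment 2, against 8.76, 8.32 and 8.51 in wild type. Its experiment 1 values were 7.36, 7.17 and 7.47 in Kmt2d+/βGeo mice, against 7.87, 7.87, 7.87 and 7.9 in wild type. The genotypes did not overlap in either experiment, and every Kmt2d+/βGeo value was the lower. The brighter Kmt2d probe set, 10432298, differed by 0.07 ± 0.07 between the genotypes over both experiments (limma adjusted p = 0.936). Where on the transcript each probe set lies relative to the trap was not examined here.

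The arrays of the experiments differed in ways that touch every result. Experiment 2 arrays had medians of 7.04 to 7.08 log2 units and SDs over probe sets of 2.13 to 2.17. Experiment 1 arrays had lower medians, 6.74 to 6.9, and wider SDs, 2.28 to 2.35. Correlations between arrays were 0.928 to 0.996. Most members gave dim signals. Only 14 of the 35 lay above the dimmest 30% of genes, a limit of 6.29 log2 units, whereas 70.0% of all genes did. The median SD between mice of a group was 0.132 for members and 0.137 for all genes. For 14 of the 35 members at least 2 arrays of a group held exactly equal values, against 3021 of all 19938 genes. Such ties were thus more common among members, and some of their SDs understate the spread. Brightness also depends on the probes, so levels are not compared between genes.

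The first comparison asks whether cell division and replication genes differed by genotype over both experiments. None of the 35 members passed the test, as was also true of all genes (0.0% called). Kmt2d+/βGeo mice had the higher fitted value for 24 members and the lower one for 11, against 51.0% higher among all genes. The median difference was 0.036 for members and 0.002 for all genes, and the median size without sign was 0.05 and 0.056. Between replicates, the array medians over members had an SD of 0.054. That is a spread of single arrays and not the SE of the median difference, which was not computed. Differences ran over −0.13 to 0.28. The 95% intervals of all members lay within −0.3 to 0.54, and only that of Mcm6 reached past 0.5 in either direction. At an unadjusted p below 0.05 there was 1 member, Mcm6 (2.86%, against 5.25% of all genes).

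**Figure D1:**
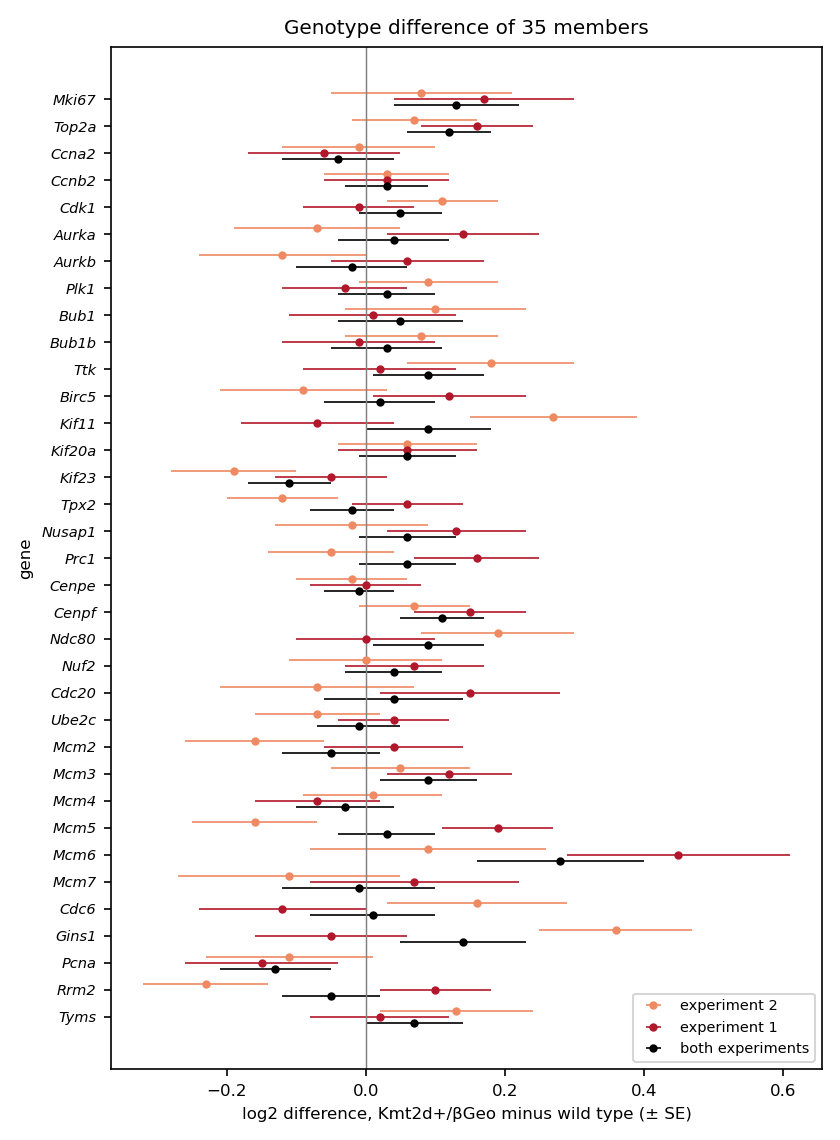
Log2 difference of Kmt2d+/βGeo minus wild type (points, with SE as bars) for each of the 35 members, in experiment 2, in experiment 1 and over both. Most points lie within 0.2 of 0, and Mcm6 in experiment 1 (0.45) and Gins1 in experiment 2 (0.36) lie farthest to the right.

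Both genes of proliferation and chromosome structure were above 0. Mki67, whose protein coats mitotic chromosomes and marks cycling cells, had 6.15, 6.41 and 6.41 log2 units in Kmt2d+/βGeo mice of experiment 2, against 6.19, 6.32 and 6.22 in wild type. Experiment 1 gave 6.22, 6.56 and 6.13 in Kmt2d+/βGeo mice, against 5.89, 6.16, 6.42 and 6.05 in wild type. The genotypes overlapped in both experiments, and the difference of 0.13 ± 0.09 did not pass (adjusted p = 0.934, limma). It was 0.07 without Kmt2d+/βGeo replicate 2 of experiment 1, the highest of the 13 values.

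Top2a, the topoisomerase that untangles replicated chromosomes, had 5.97, 5.98 and 6.0 log2 units in Kmt2d+/βGeo mice of experiment 2, against 5.89, 5.93 and 5.92 in wild type. Values in experiment 1 were 6.3, 6.24 and 6.02 in Kmt2d+/βGeo mice, against 5.99, 5.97, 6.13 and 6.02 in wild type. The groups were apart in experiment 2 by less than 0.1 and overlapped in experiment 1. The difference over both was 0.12 ± 0.06 (adjusted p = 0.934, limma). A second, dimmer Top2a probe set was 0.12 higher in Kmt2d+/βGeo mice of experiment 2 and 0.06 lower in experiment 1 (−0.06 log2 units).

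Among the mitotic cyclins and their kinase, 3 members were measured and their differences were −0.04 to 0.05. Cdk1, the kinase that starts mitosis, had 6.15, 6.12 and 5.95 log2 units in Kmt2d+/βGeo mice of experiment 2, against 5.98, 5.97 and 5.95 in wild type. The counterparts in experiment 1 were 5.95, 5.95 and 5.85 in Kmt2d+/βGeo mice, against 5.95, 5.85, 5.95 and 5.95 in wild type. Values overlapped in both experiments, several were exactly equal, and the difference was 0.05 ± 0.06. The other measured genes of this role were Ccna2, which encodes cyclin A2, and Ccnb2, which encodes cyclin B2.

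The 7 mitotic kinases and checkpoint genes (Aurka, Aurkb, Plk1, Bub1, Bub1b, Ttk and Birc5) differed by −0.02 to 0.09, with 6 above 0. The 6 motor and spindle genes differed by −0.11 to 0.09, with 4 above 0. The lowest of these was Kif23, a kinesin of the midbody at which daughter cells separate, with 6.04, 6.06 and 6.07 log2 units in Kmt2d+/βGeo mice of experiment 2, against 6.16, 6.44 and 6.14 in wild type. Experiment 1 values were 6.05, 6.04 and 5.92 in Kmt2d+/βGeo mice, against 6.08, 6.06, 6.06 and 5.99 in wild type. The groups did not overlap in experiment 2 and did in experiment 1, and the difference over both was −0.11 ± 0.06 (adjusted p = 0.934, limma). It was −0.06 without wild-type replicate 2 of experiment 2, which holds the highest value.

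Kinetochore genes, 4 in number, differed by −0.01 to 0.11. The highest was Cenpf, a large protein of the outer kinetochore, with 5.79, 5.79 and 5.89 log2 units in Kmt2d+/βGeo mice of experiment 2, against 5.75, 5.73 and 5.78 in wild type. Its experiment 1 values were 5.85, 5.75 and 5.75 in Kmt2d+/βGeo mice, against 5.65, 5.48, 5.65 and 5.75 in wild type. Kmt2d+/βGeo values were all higher in experiment 2, by a narrow margin, and met the wild-type range in experiment 1. The difference over both was 0.11 ± 0.06 (adjusted p = 0.934, limma). Cdc20 and Ube2c, which help the anaphase-promoting complex mark its targets, differed by −0.01 to 0.04.

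Among the 8 genes of origin licensing and the helicase, 5 were above 0 and 3 below, over −0.05 to 0.28. Mcm6, a subunit of the helicase ring, had 6.89, 7.16 and 7.1 log2 units in Kmt2d+/βGeo mice of experiment 2, against 7.17, 6.9 and 6.82 in wild type. Experiment 1 gave 7.53, 7.14 and 7.31 in Kmt2d+/βGeo mice, against 7.08, 6.38, 7.0 and 7.05 in wild type. The genotypes overlapped in experiment 2 and were apart in experiment 1, where wild-type replicate 2 was far below the other wild-type mice. Over both experiments the difference was 0.28 ± 0.12, a 1.22-fold higher value (95% interval 0.03 to 0.54, adjusted p = 0.913, limma). It was 0.19 without that wild-type mouse, whose array also stood apart in its markers, as given below.

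Mcm2, another subunit of the ring and a marker of cells licensed to replicate, had 7.29, 7.45 and 7.15 log2 units in Kmt2d+/βGeo mice of experiment 2, against 7.45, 7.31 and 7.6 in wild type. Values in experiment 1 were 7.44, 7.35 and 7.25 in Kmt2d+/βGeo mice, against 7.33, 7.25, 7.43 and 7.21 in wild type. The ranges overlapped in both, and the difference was −0.05 ± 0.07, with the sign turned to 0.01 when arrays were weighted by their quality.

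The clamp and nucleotide genes differed by −0.13 to 0.07. Pcna had 10.01, 10.21 and 9.78 log2 units in Kmt2d+/βGeo mice of experiment 2, against 10.32, 9.96 and 10.04 in wild type. The counterparts in experiment 1 were 10.79, 10.69 and 10.65 in Kmt2d+/βGeo mice, against 10.91, 10.72, 11.0 and 10.84 in wild type. Its genotypes overlapped in both experiments, and the difference was −0.13 ± 0.08 (adjusted p = 0.934, limma). Both probe sets of Pcna were lower in Kmt2d+/βGeo mice of both experiments, at −0.11 and −0.1 in experiment 2 and −0.15 and −0.17 in experiment 1.

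**Figure D2:**
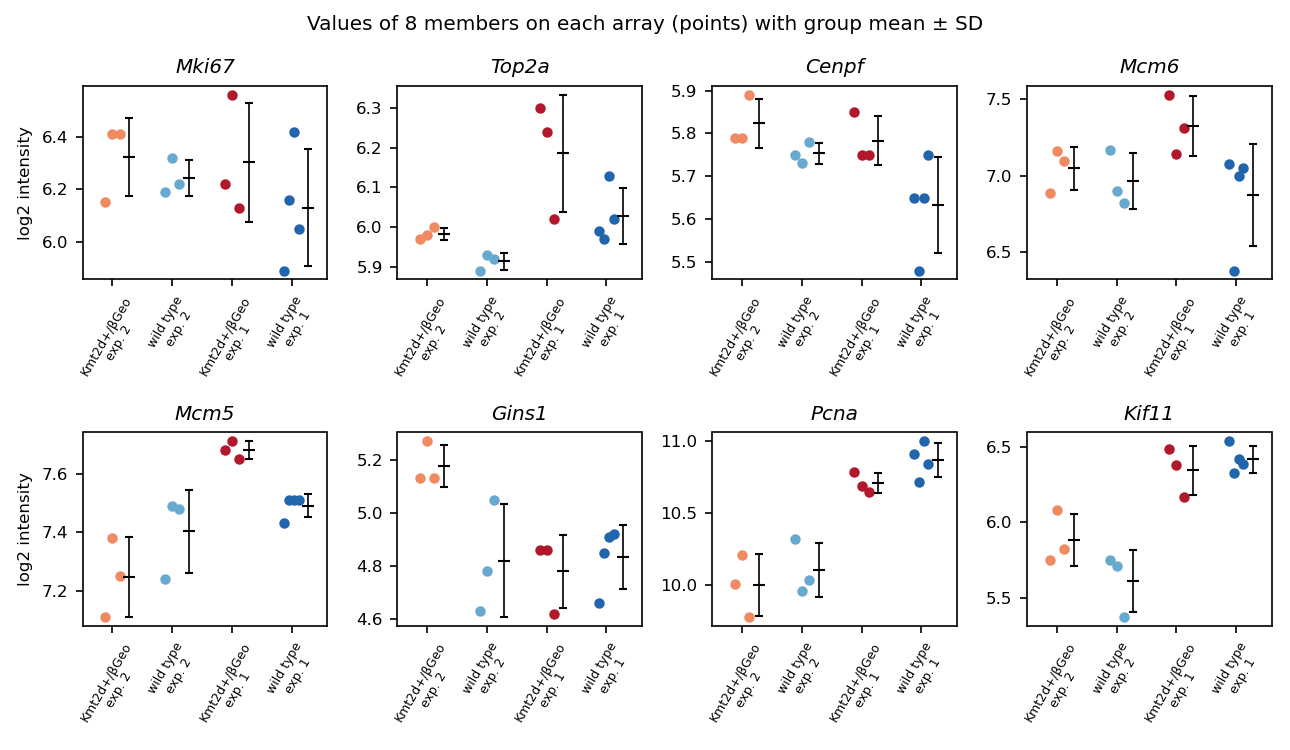
Log2 intensity of 8 members on each of the 13 arrays (points), with the group mean and SD beside them, for Kmt2d+/βGeo and wild-type mice of experiment 2 and of experiment 1. Genotypes do not overlap for Top2a, Cenpf and Gins1 in experiment 2 and for Mcm5 and Mcm6 in experiment 1, and Pcna and Kif11 are lower in experiment 2 in both genotypes.

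Within experiment 2, none of the members passed the test between genotypes (0.0% of all genes called). Kmt2d+/βGeo mice were higher for 18 members and lower for 17, against 47.0% higher among all genes, and the median difference was 0.007 for members and −0.011 for all genes. Unadjusted p-values below 0.05 were found for 3 members, Gins1, Rrm2 and Kif11 (8.57%, against 10.2% of all genes). The genotypes did not overlap for 6 members (17.1%, against 9.48% of all genes). Of these, Top2a, Cenpf and Gins1 were higher in Kmt2d+/βGeo mice (8.57%, against 4.32% of all genes). Kif23, Rrm2 and Tpx2, which builds spindle microtubules, were lower (8.57%, against 5.17%).

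Gins1, a subunit of the GINS complex that activates the helicase, had 5.13, 5.27 and 5.13 log2 units in Kmt2d+/βGeo mice of experiment 2, against 4.63, 4.78 and 5.05 in wild type. All values were higher in Kmt2d+/βGeo mice, by 0.36 ± 0.11 on average, a 1.28-fold difference (adjusted p = 0.372, limma). Experiment 1 values were 4.86, 4.86 and 4.62 in Kmt2d+/βGeo mice, against 4.66, 4.85, 4.91 and 4.92 in wild type. There the groups overlapped and the difference was −0.05 ± 0.11.

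Rrm2, the subunit of ribonucleotide reductase that is made in S phase, had 6.11, 6.1 and 6.22 log2 units in Kmt2d+/βGeo mice of experiment 2, against 6.46, 6.39 and 6.27 in wild type. All values were lower in Kmt2d+/βGeo mice, and the difference was −0.23 ± 0.09 (adjusted p = 0.411, limma). Its experiment 1 values were 6.37, 6.46 and 6.27 in Kmt2d+/βGeo mice, against 6.32, 6.15, 6.27 and 6.33 in wild type, an overlap with a difference of 0.1 ± 0.08.

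Kif11, the kinesin that pushes spindle poles apart, had 5.75, 6.08 and 5.82 log2 units in Kmt2d+/βGeo mice of experiment 2, against 5.75, 5.71 and 5.37 in wild type. To 2 decimals the lowest Kmt2d+/βGeo value equalled the highest wild-type one, and the difference was 0.27 ± 0.12 (adjusted p = 0.459, limma). It was 0.15 without wild-type replicate 3 and 0.17 without Kmt2d+/βGeo replicate 2. Kif23 differed by −0.19 ± 0.09 there (adjusted p = 0.488, limma), and by −0.09 without wild-type replicate 2.

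Within experiment 1, again none of the members passed (0.0201% of all genes, or 4 genes, did). Kmt2d+/βGeo mice were higher for 25 members and lower for 10, against 57.5% higher among all genes, and the median difference was 0.044 for members and 0.015 for all genes. Mcm6 and Mcm5 had unadjusted p-values below 0.05 (5.71% of members, against 3.5% of all genes). The genotypes did not overlap for 5 members, Aurka, Cdc20, Mcm3, Mcm5 and Mcm6 (14.3%, against 7.22% of all genes). All 5 were higher in Kmt2d+/βGeo mice, a direction without overlap that 4.47% of all genes had. Mcm6 differed most, by 0.45 ± 0.16, 1.37-fold (95% interval 0.12 to 0.78, adjusted p = 0.995, limma). Without wild-type replicate 2 the difference was 0.29 and the groups still did not overlap.

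Mcm5, a further subunit of the helicase ring, had 7.68, 7.71 and 7.65 log2 units in Kmt2d+/βGeo mice of experiment 1, against 7.43, 7.51, 7.51 and 7.51 in wild type. Its difference of 0.19 ± 0.08 (adjusted p = 1.0, limma) was small, with a tight spread within each group. In experiment 2 it had 7.11, 7.38 and 7.25 in Kmt2d+/βGeo mice, against 7.24, 7.49 and 7.48 in wild type, overlapping, with a difference of −0.16 ± 0.09. Aurka, a kinase of the spindle poles, was higher by 0.14 ± 0.11 in experiment 1 and lower in experiment 2 (−0.07 ± 0.12). Top2a and Cenpf, among the 4 members of lowest p in experiment 1, differed by 0.16 ± 0.08 and 0.15 ± 0.08 there.

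The arrays of experiment 1 differed in how many members were high. Kmt2d+/βGeo replicates 1, 2 and 3 had 26, 29 and 18 of the 35 members above the mean of the experiment, and wild-type replicates 1 to 4 had 12, 15, 19 and 14. Over all genes the share above that mean was 58.2%, 54.1% and 50.2% in these Kmt2d+/βGeo mice, and 51.1%, 42.8%, 50.8% and 50.5% in wild type. In experiment 2 the numbers were 15, 22 and 17 of 35 in Kmt2d+/βGeo mice and 19, 10 and 18 in wild type. Shares of all genes above the mean of experiment 2 were 54.5%, 52.0% and 42.2% in these Kmt2d+/βGeo mice, and 48.3%, 52.1% and 53.4% in wild type. Kmt2d+/βGeo replicates 1, 2 and 3 of experiment 1 held the highest value of their experiment for 10, 11 and 4 members. They held the lowest for 7, 0 and 6. Wild-type replicates 1 to 4 held the highest for 3, 3, 3 and 1 members, and the lowest for 9, 7, 1 and 5. In experiment 2 the Kmt2d+/βGeo replicates 1, 2 and 3 held the highest for 4, 8 and 9 members and the lowest for 3, 5 and 10. Its wild-type replicates 1, 2 and 3 held the highest for 5, 4 and 5 and the lowest for 5, 8 and 4. Exactly tied values were credited to the array listed first, with Kmt2d+/βGeo before wild type. The matching shares over all genes were not computed.

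**Figure D3:**
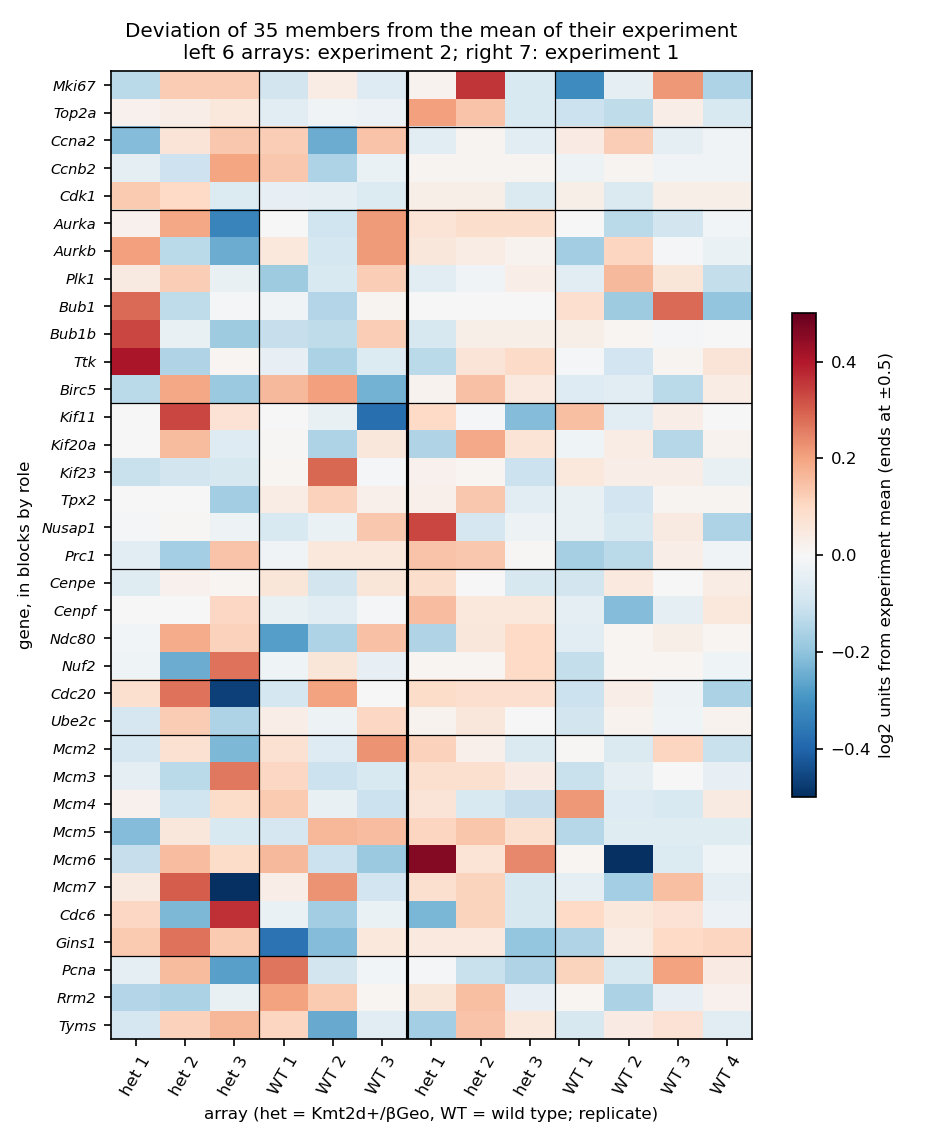
Deviation of each of the 35 members from the mean of its experiment, in log2 units by colour, on the arrays of experiment 2 (left of the thick line) and experiment 1, with Kmt2d+/βGeo (het) left of wild type (WT) in each. Rows are grouped by role, and Kmt2d+/βGeo replicate 2 of experiment 1 is mostly above 0, with 29 of 35 members.

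The genotype differences of the experiments were then set against each other. The difference of the differences (experiment 2 minus experiment 1) passed for none of the members (0.0% of all genes called), and its unadjusted p was below 0.05 for 3 (8.57%, against 6.53% of all genes). These were Mcm5, at −0.35 ± 0.12 (adjusted p = 0.73), Rrm2, at −0.33 ± 0.12 (adjusted p = 0.74), and Gins1, at 0.41 ± 0.16 (adjusted p = 0.751, all limma). Kif11 followed at 0.35 ± 0.17 (adjusted p = 0.761, limma). The genotype difference had the same sign in both experiments for 14 of 35 members (40.0%, against 48.2% of all genes). Of these, 11 were higher in both (31.4% of members, against 26.4% of all genes), Mki67, Top2a, Cenpf, Mcm3 and Mcm6 among them. The 3 that were lower in both (8.57%, against 21.8%) were Ccna2, Kif23 and Pcna. The experiments share no animals.

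The experiments themselves were compared next, as experiment 2 minus experiment 1 with genotype in the model. Effects of the saline injections, of the run of arrays and of any normalisation done apart cannot be told apart here. On the deposited values 14 of 35 members passed (40.0%, against 77.2% of all genes). The 7 that rose (20%, against 41.8% of all genes) were Aurka, Ttk, Birc5, Kif20a, Ndc80, Mcm3 and Tyms. The 7 that fell (20%, against 35.4%) were Top2a, Ccna2, Kif11, Mcm4, Mcm5, Mcm7 and Pcna. The experiments did not overlap for 7 members (20%, against 52.8% of all genes), with Birc5, Ndc80 and Mcm3 higher in experiment 2 (8.57%, against 25.4%) and Kif11, Mcm4, Mcm7 and Pcna lower (11.4%, against 27.5%). The median size of the difference was 0.142 for members and 0.386 for all genes.

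On the deposited scale Pcna had the largest fall, by 0.74 log2 units, 1.67-fold (−0.74 ± 0.08, adjusted p = 3.36e-07, limma). Every experiment 2 value, 9.78 to 10.32, lay below every experiment 1 value, 10.65 to 11.0. The second Pcna probe set, whose values ran nearly parallel, gave −0.75. Among the helicase genes, Mcm7 differed by −0.66 ± 0.11 (adjusted p = 3.53e-05) and Mcm4 by −0.61 ± 0.07 (adjusted p = 4.07e-07, limma). Mcm4 had 6.9, 6.78 and 6.97 log2 units in Kmt2d+/βGeo and 7.01, 6.84 and 6.77 in wild-type mice of experiment 2. It had 7.56, 7.42 and 7.38 in Kmt2d+/βGeo and 7.71, 7.43, 7.42 and 7.54 in wild-type mice of experiment 1. All experiment 2 values of both genes were the lower.

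Mcm7 had 6.86, 7.12 and 6.31 log2 units in Kmt2d+/βGeo and 6.85, 7.04 and 6.72 in wild-type mice of experiment 2. Experiment 1 gave 7.56, 7.59 and 7.4 in Kmt2d+/βGeo and 7.43, 7.31, 7.63 and 7.43 in wild-type mice. The widest spread was among Kmt2d+/βGeo mice of experiment 2, where replicate 3 was lowest. Kif11 fell by 0.65 (−0.65 ± 0.09, adjusted p = 7.15e-06, limma), with 5.37 to 6.08 in experiment 2 below 6.17 to 6.54 in experiment 1. Mcm5 fell by 0.25 (−0.25 ± 0.07, adjusted p = 0.00665, limma), with ranges that overlapped.

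Of the 7 members that rose on this scale, Ndc80 and Birc5 had the lowest p. Ndc80, the kinetochore protein that grips microtubules, had 5.74, 5.94 and 5.87 log2 units in Kmt2d+/βGeo and 5.48, 5.6 and 5.9 in wild-type mice of experiment 2. Values in experiment 1 were 5.15, 5.36 and 5.4 in Kmt2d+/βGeo and 5.25, 5.31, 5.33 and 5.31 in wild-type mice. Experiment 2 was higher throughout, by 0.45 ± 0.08 (adjusted p = 5.25e-05, limma). Birc5, which encodes the chromosomal passenger protein survivin, differed by 0.44 ± 0.08 (adjusted p = 0.000169, limma), and its experiment 2 values also lay above all of experiment 1. Mki67, Cdk1 and Mcm2 differed by 0.07 ± 0.09, 0.1 ± 0.06 and 0.06 ± 0.07 and did not pass.

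These directions depended on the scaling. The median over all genes was 0.07 as deposited, −0.05 after quantile normalisation of the 13 arrays and −0.17 after subtraction of array medians, and that of the members was 0.07, −0.28 and −0.18. Relative to the median of all genes, the members' median was −0.001 as deposited and −0.23 after quantile normalisation. With quantile normalisation 24 members passed (68.6%, against 63.8% of all genes). All 24 fell (against 37.6% of all genes) and 0 rose (against 26.2%). With medians subtracted 19 fell (54.3%, against 49.8% of all genes) and 1 rose, Ndc80 (2.86%, against 19.6% of all genes). Top2a, Ccna2, Kif11, Mcm4, Mcm5, Mcm7 and Pcna fell in all 3 scalings (20% of members, against 29.7% of all genes), and no member rose in all 3 (15.9% of all genes did). After quantile normalisation Kif11 (−0.98), Mcm7 (−0.85) and Mcm4 (−0.8) had larger falls than Pcna (−0.52). Birc5 and Ndc80 differed by 0.08 and 0.09 on that scale and no longer passed. Mki67, Cdk1 and Mcm2 changed sign, to −0.28, −0.26 and −0.08.

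The fall of Top2a rests on 1 of its probe sets. The brighter gave −0.16 ± 0.06 (adjusted p = 0.0214, limma), the dimmer gave 0.31, and their mean 0.07. Its adjusted p was 0.0599 without Kmt2d+/βGeo replicate 1 of experiment 1 and 0.0539 without replicate 2 of that group.

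**Figure D4:**
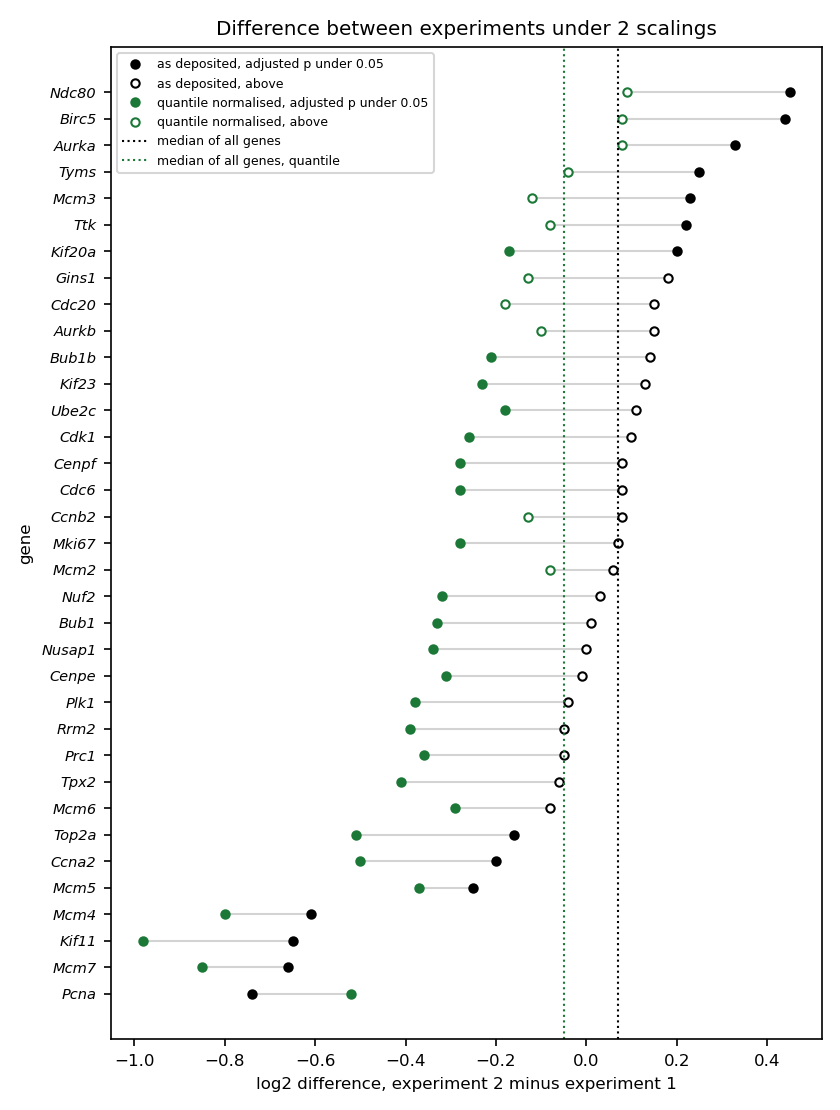
Log2 difference of experiment 2 minus experiment 1 for each member, as deposited (black) and after quantile normalisation (green), filled where the adjusted p was below 0.05. Dotted lines mark the medians of all genes, and 32 of 35 members lie below 0 after quantile normalisation.

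The difference between the experiments varied with signal level over all genes. Genes were split by their mean into 5 bins of equal size. In the dimmest bin, with means of 2.96 to 5.6 log2 units, the median difference was 0.24, in the next 0.33, in the middle one −0.01, and in the brighter ones −0.29 and −0.43. The 9 members of the dimmest bin had a median of 0.03 and the 19 of the next 0.1. The 6 members of the middle bin (6.92 to 8.13) had a median of −0.16, no member lay in the next, and Pcna (−0.74) was the only one in the brightest. In each of the 4 bins that held any, the members' median was below that of all genes. After quantile normalisation the all-gene medians were 0.0, −0.01, −0.11, −0.08 and −0.2.

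**Figure D5:**
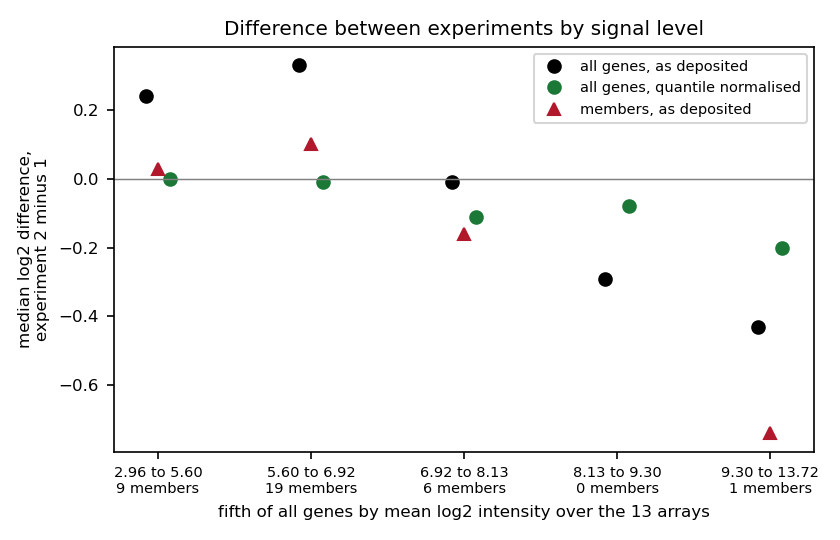
Median log2 difference of experiment 2 minus experiment 1 in 5 equal bins of all genes by mean log2 intensity, for all genes as deposited, for all genes after quantile normalisation, and for members as deposited. The all-gene medians are 0.24 and 0.33 in the 2 dimmest bins and −0.43 in the brightest, and the 2 dimmest bins hold 9 and 19 of the 35 members.

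Genes of the same processes outside the 36 were counted from 4 further lists. By genotype over both experiments 0 genes of these lists passed. Among all genes 51.0% were above 0, with a median of 0.002. The genes of a list were measured in the same mice, so their signs are not independent. Of 63 further mitosis genes 44 were above 0, with a median of 0.031. Of 55 measured replication genes (57 listed) 32 were above 0, with a median of 0.019. Of 29 G1 cyclins, kinases and E2F or Myb factors 18 were above 0 (median 0.024), and of 13 measured Cdk inhibitors and arrest genes (15 listed) 7 were (median 0.011). The mitosis genes of lowest p were Smc2, a condensin subunit, at 0.24 ± 0.08 (adjusted p = 0.795, limma), Ska3 of the kinetochore at 0.16 ± 0.06, and Mad2l1 of the spindle checkpoint at 0.2 ± 0.09. Those of replication were Chek1, the checkpoint kinase, at 0.19 ± 0.07, Uhrf1, which maintains DNA methylation, at 0.16 ± 0.06, and Rfc1, the clamp loader, at 0.2 ± 0.09. In the other 2 lists the lowest p-values were those of Wee1, an inhibitory kinase of Cdk1 (0.21 ± 0.09), Rb1 (0.16 ± 0.08), Ccnd3 (−0.11 ± 0.08), Ccng2 (0.13 ± 0.06), Ccng1 (0.11 ± 0.07) and Cdkn2b (0.1 ± 0.08).

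Between the experiments these lists moved in both directions. Mitosis genes rose in 23 cases and fell in 14, replication genes in 21 and 21, G1 genes in 6 and 17, and Cdk inhibitors in 5 and 5, where 41.8% of all genes rose and 35.4% fell. After quantile normalisation the counts were 5 and 37, 8 and 30, 4 and 17, and 4 and 5, where 26.2% of all genes rose and 37.6% fell. Nothing particular to these lists is read from the counts. Anln, which encodes the contractile ring protein anillin and is also expressed by oligodendrocytes, fell by 2.57 (−2.57 ± 0.15, 5.93-fold, adjusted p = 1.91e-10, limma). Rrm1, the large subunit of ribonucleotide reductase, fell by 1.91 (−1.91 ± 0.09, 3.75-fold). Orc5 of the origin recognition complex (−1.71 ± 0.09), Prim2 of the primase (−1.18 ± 0.07), Cks2, a Cdk subunit (−1.3 ± 0.06), and Zwint of the kinetochore (−0.6 ± 0.06) also fell. So did the regulators Tfdp2, a partner of E2F (−1.3 ± 0.1), Wee1 (−1.22 ± 0.09) and Lin52 of the MuvB complex (−1.13 ± 0.08). Cdkn1b, which encodes the inhibitor p27, fell by 1.63 (−1.63 ± 0.08, 3.1-fold), as did the antiproliferative gene Btg1 (−1.38 ± 0.07). Cdkn2d, another Cdk inhibitor, rose by 1.32 ± 0.08 (2.49-fold). All of these kept their sign after quantile normalisation.

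Markers of the cells that the tissue holds were read beside these results. The markers of neural progenitors and immature neurons (15 of 16 measured) averaged 7.26 to 7.31 log2 units per Kmt2d+/βGeo array of experiment 2. Its wild-type arrays averaged 7.33 to 7.55, so that the genotypes were apart only by the narrow step from 7.31 to 7.33. In that experiment 0 of these 15 markers had an unadjusted p below 0.05 (limma), against 10.2% of all genes. The number was 1 of 15 in experiment 1 (against 3.5% of all genes) and 2 of 15 over both experiments (against 5.25%). Differences over both ran from −0.37 to 0.1. In experiment 1 the markers averaged 7.74 to 7.86 in Kmt2d+/βGeo mice and 7.6 to 8.03 in wild type, an overlap. By genotype over both experiments 4 of the markers were above 0 and 11 below, where 51.0% of all genes were above 0. Their median was −0.064 with 0 called, while the median of the division and replication genes was above 0. Between the experiments 9 fell and 2 rose, with a median of −0.463, where 35.4% of all genes fell and 41.8% rose. Of the other cells that can divide, oligodendrocyte precursors (10 of 10) had 2 rises and 5 falls between the experiments, microglia (9 of 10) 3 and 4, and endothelium (9 of 10) 1 and 8, to be read against the same shares of all genes. Oligodendrocyte precursor markers averaged 8.49 to 8.59 in Kmt2d+/βGeo mice and 8.39 to 8.62 in wild type of experiment 2, microglial ones 8.26 to 8.32 and 8.25 to 8.36, and endothelial ones 7.98 to 8.15 and 7.99 to 8.1. In experiment 1 the ranges for Kmt2d+/βGeo and wild type were 8.74 to 8.93 and 8.82 to 8.93, 8.39 to 8.48 and 8.37 to 8.44, and 8.56 to 8.7 and 8.43 to 8.7. The genotypes overlapped for all 3 lists in both experiments, and none of these genes passed between genotypes.

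The remaining lists mark dentate granule cells, pyramidal cells, choroid plexus, ependyma and striatal neurons. Markers of dentate granule cells (10 of 10) averaged 8.5 to 8.68 in Kmt2d+/βGeo mice and 8.38 to 8.75 in wild type of experiment 2, and 9.35 to 9.43 and 8.76 to 9.24 in experiment 1, where the genotypes were apart. Those of CA1 and CA3 pyramidal cells (10 of 10) were at 8.94 to 9.01 in Kmt2d+/βGeo mice and 8.84 to 9.06 in wild type of experiment 2, and at 9.63 to 9.69 and 9.56 to 9.68 in experiment 1. Choroid plexus markers (9 of 10) were at 7.68 to 8.65 in Kmt2d+/βGeo mice and 6.91 to 8.67 in wild type of experiment 2. In experiment 1 they were at 8.1 to 8.41 in Kmt2d+/βGeo mice. Wild-type replicates 1 to 4 had 9.42, 8.24, 9.63 and 9.65 there, so only replicate 2 met the Kmt2d+/βGeo range. All 9 markers were lower in Kmt2d+/βGeo mice of experiment 1 (median −1.151), and 8 were higher in experiment 2 (median 0.302). None of the 9 passed in either experiment. Ependymal markers (10 of 10) were at 6.86 to 7.01 in Kmt2d+/βGeo mice and 6.64 to 6.87 in wild type of experiment 2, and at 6.6 to 6.84 and 7.05 to 7.28 in experiment 1, where the genotypes were apart. Markers of striatal neurons (8 of 10) averaged 10.95 in wild-type replicate 2 of experiment 1, the array with the lowest Mcm6 value, and 8.16 to 8.5 on the 12 other arrays. RMA values have no true zero, so no marker can be called absent. The part of these differences in the members' values was not tested, apart from the values without that array given above.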

How the data were processed

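Total RNA of whole hippocampi was measured on 13 arrays of the Affymetrix Mouse Gene 1.0 ST design. The authors deposited log2 values that oligo had made by RMA (background correction, quantile normalisation and median polish), as the submitters' processing notes record. No source used here states the genome build, or that all arrays were normalised together. The table holds 35556 probe sets, of which the platform annotation gives 21789 to 1 gene symbol, 1621 to several and 12146 to none. Each of the 19938 genes was represented by its brightest probe set, with no filter on dim genes, and 0 columns of per-sample values were left unused.

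Differences were tested with limma 3.58.1 (lmFit and eBayes, two-sided) in R 4.3.3, with statmod 1.5.0 for weights, and p-values were adjusted by Benjamini-Hochberg over all genes. Genotype over both experiments and the experiment came from an additive model, the other contrasts from a model of the 4 groups. The procedure was tested on simulated data. Precision is limited by the number of arrays, and each array is of another mouse, per the labels. Replicate numbers were not treated as pairs in the main fits. Deviations of same-numbered mice correlated by −0.23 to 0.22, and those of differently numbered mice by −0.28 to 0.33. So few correlations cannot show whether mice were paired.

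The members, the gene lists, the promoter words and the alternatives were chosen with earlier results of these data known. Named members were Mki67, Top2a, Cdk1, Mcm2 and Pcna, and, for each of the 5 contrasts, the members past the threshold or, where there were more than 6 or fewer than 4, those of lowest p (4, or 6 between the experiments). From each further list the 3 genes of lowest p were named. Others, named for their group or probe sets, were singled out after their values were seen. The alternatives were the mean of all probe sets, the dimmest 30% of genes left out, quantile normalisation, array medians subtracted, a trended and robust eBayes, array weights, the replicate number as a block, each experiment alone, each array left out in turn, and 3 arrays that stood apart left out together (wild-type replicates 2 and 3 of experiment 1 and Kmt2d+/βGeo replicate 3 of experiment 2).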

Additional observations from a re-analysis of the deposited data

Results flagged for a closer look

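Among the 16 named genes examined, 3 had a wild-type mouse of experiment 1 far from the other 3 of its group by Dixon's 95% test, which divides the gap to the nearest value by the range. Chance alone flags about 1 in 20 groups. Mcm6 had 6.38 log2 units in wild-type replicate 2, against 7.0 to 7.08 in the others, a ratio of 0.886. Cdk1 had 5.85 in the same mouse, against exactly 5.95 in the others, and Mcm5 had 7.43 in wild-type replicate 1, against exactly 7.51 in the others. Both of these have a ratio of 1.0 because the other values are tied, and gaps of about 0.1 log2 units or less. The other groups hold 3 mice and were not examined this way.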

How the results depend on the processing

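No member passed any genotype test under any alternative run, the replicate block (0 members) included, and leaving out each array in turn gave 0 members for the genotype differences and for their difference between the experiments. Over all genes, array weights raised the calls to 21 over both experiments, against 0, and to 163 in experiment 1, against 4. There the block left 1, and quantile normalisation gave 2, as it did in experiment 2, against 0. Leaving out Kmt2d+/βGeo replicate 1 of experiment 2 gave 91 genes in that experiment, and leaving out wild-type replicate 2 of experiment 1 gave 48 in that one. The median genotype difference of the members was 0.029 to 0.049 over both experiments with each array left out, 0.027 to 0.072 in experiment 1 and −0.003 to 0.04 in experiment 2. In experiment 2 it was −0.073, in place of 0.007, over the 14 members left without the dimmest 30% of genes. Between the experiments 14 members passed (77.2% of all genes), 7 of the 14 left without the dim genes (79.1%), 24 after quantile normalisation (63.8%) and 12 to 18 with an array left out (74.9% to 78.2%). The members' median relative to all genes was −0.001, and 0.161, −0.23 and −0.037 to 0.011 under the same settings. Differences between the experiments that changed sign were those of Mki67 (−0.28 after quantile normalisation, −0.18 with array medians subtracted), Cdk1 (−0.26 and −0.15), Mcm2 (−0.08 and −0.19) and Top2a (0.07 as the mean of its probe sets). The genotype difference of Mcm2 turned to 0.01 with array weights. The cause was not tested. Without the 3 arrays that stood apart, Top2a no longer passed between the experiments (−0.15, adjusted p = 0.0519, limma). For named genes 206 results kept direction and side of the threshold, 8 changed sign and 4 no longer passed, and with an array left out 388 were kept and 2, both of Top2a, no longer passed. Signals near the dim end and 3 or 4 mice per group limit what can be seen.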
